A study of Mus musculus with 8 samples.

Results

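During the first 8 days of factor-driven reprogramming of mouse fibroblasts, 41 genes dipped on day 4 (D4) and stood higher again on days 6 and 8 (D6 and D8). A gene was taken where the lowest of its 6 libraries of D2, D6 and D8 held at least 5 CPM and at least 1.3 times the higher of its 2 D4 libraries. CPM is the number of reads of a gene per 1000000 counted reads of its library, a level that is not divided by gene length. Symbols starting with Rpl, Rps, Hsp, mt-, Nduf, Cox or Aldo were left out. That removed 331 genes at this level, of which Hspb1 alone met the other conditions. The rule took 41 of 10652 eligible genes (0.385%), from a table of 32108 genes. The members were thus selected on the measured CPM of all 8 libraries, D4 against the other days, and the depth of the trough is described without a test. Tests were made only between D2, D6 and D8, on whose order the rule sets no condition. Each test compared mean log2(CPM + 1) values in a limma model over all 8 libraries, and every log2 difference below is the later day minus the earlier one on that scale, with p-values adjusted over all 15358 tested genes.

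The cells were 4F2A mouse embryonic fibroblasts (MEFs), taken from homozygous embryos at 13.5 dpc that the labels call male. The 4F2A allele is a doxycycline-inducible cassette in the Col1a1 locus that encodes the factors c-Myc, Klf4, Sox2 and Oct4, joined by self-cleaving peptides. All groups received 2 µg/mL doxycycline from day 0 in KnockOut serum replacement medium with 1000 U/mL LIF, and were harvested on D2, D4, D6 and D8, with 2 libraries each. Every sample carries the cassette and the drug, all titles mark the samples as controls, and no sample of day 0 or without doxycycline was analysed, so each comparison is between days of induction. Whether both libraries of a day stem from different cultures or animals is not stated, and the p-values therefore reflect only how far these libraries lie apart, which may be technical. In bulk RNA, fewer cells that express a gene and less of its RNA per cell cannot be told apart.

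Reprogramming by these factors is known to pass through stages, with early loss of fibroblast genes and a turn towards epithelial features, and with pluripotency genes switched on late. The genes described here come from several systems that are known to act in such cells. Hmox1, Sqstm1 and Tfrc belong to the handling of oxidants, damaged protein and iron, the tubulins and Lims2 to the cytoskeleton and its anchorage, Itga3 and Cd151 to the adhesion of cells to laminin, and Creb5, Crebzf and Neat1 to the regulation of transcription and to nuclear bodies.

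The libraries held 19409936 to 20161021 counted reads, so that 5 CPM stood for 97.0 to 101 reads, and 20784 to 22080 genes were above 0. Of the fibroblast markers, Col1a1 ran from 10848 to 18029 CPM over the libraries, Col1a2 from 6098 to 10465 CPM, Vim from 2516 to 4832 CPM, Dcn from 199.8 to 1809 CPM, Thy1 from 332 to 536 CPM and Pdgfra from 10.4 to 90.8 CPM. The pluripotency marker Nanog lay between 0.252 and 0.569 CPM. Of the muscle markers, Myod1 was at 0 CPM in all 8 libraries, Myog reached at most 0.0515 CPM, and Des ran from 1.10 to 6.97 CPM, with its highest values on D2. Although the embryos are labelled male, Xist, which coats the inactive X chromosome, stood at 702 to 1238 CPM, and the Y-linked gene Ddx3y reached at most 0.333 CPM. D4 is the day on which the summed level of these 6 fibroblast markers, most of it Col1a1 and Col1a2, was highest, at 29447 and 32855 CPM on D4, against 21969 to 25394 CPM over the libraries of the other days, and its part in the D4 values was not tested.

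The trough was shallow for most of the 41 genes. The ratio of the lowest library outside D4 to the higher D4 library had a median of 1.39 and ran from 1.3001 to 2.31, and it reached 1.5 in 11 genes. The D4 mean was 13.1% to 74.9% of the D2 mean, with a median of 54.2%, and in 16 genes it was under 50% of it. The D2 mean was the highest of the 4 days in 23 genes, the D8 mean in 14 and the D6 mean in 4. Levels were modest, with a median of 26.1 CPM over all libraries and 17 genes under 20 CPM. The lowest library held 66.5 to 4771 reads, under 100 in 8 genes, which gives counting errors of 1.45% to 12.3% of that value. Such errors cover counting alone.

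**Figure D1:**
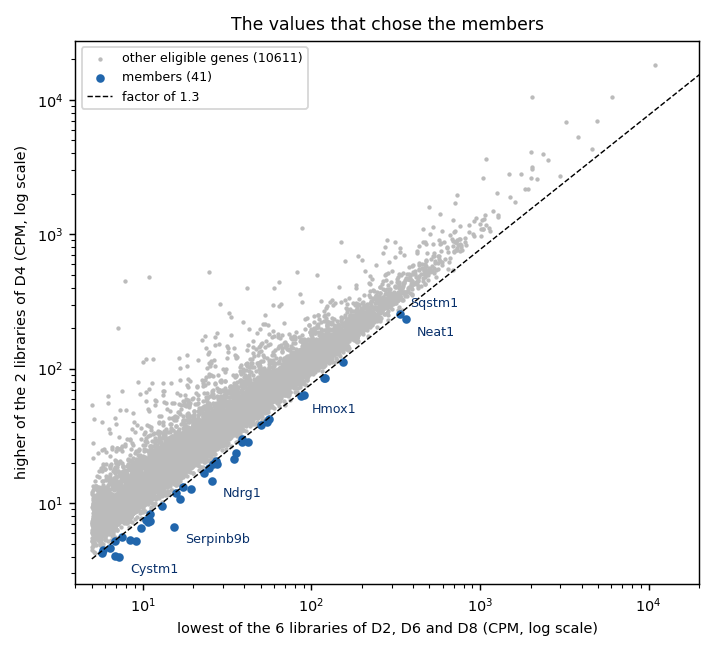
The horizontal axis gives the lowest of the 6 libraries of D2, D6 and D8 and the vertical axis the higher of the 2 D4 libraries, both in CPM on log scales, for 10652 eligible genes. Members (blue, 41) lie under the dashed line at a factor of 1.3, most of them just below it, and Serpinb9b lies farthest below, at a ratio of 2.31.

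In the plot of the lowest library outside D4 against the higher D4 library, the threshold cuts through a continuous cloud of genes. The genes just inside it were Cracr2b with a ratio of 1.3001, Sqstm1 with 1.304 and Zfp655 with 1.31, followed by Sft2d3 and Gm1840 with 1.31 and 1.32. Just outside stood Gclm with 1.297, followed by Gvin1, Alpk1, Gpi1 and Irx1 with 1.28 each. Gclm encodes the modifier subunit of the enzyme that starts glutathione synthesis, and Gpi1 encodes a glycolytic isomerase. The mirrored rule, a peak on D4, took 135 genes, and the same rules for D6 took 1 gene with a trough and 3 with a peak. These counts come from unlike pools of genes, since the peak rules set the 5 CPM minimum on the peak day alone. A trough or peak on D6 also needs a difference from D8. On D8 against D6, limma called 4.72% of tested genes higher and 4.39% lower at an adjusted p under 0.05. In 961 eligible genes (9.02%) both D4 libraries lay below all 6 others, whatever the ratio.

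Membership depended on how libraries were scaled, because CPM are shares of a library. With median-of-ratios scaling the rule took 39 genes, of which 30 were among the 41. With quantile normalization it took 43, again with 30 of the 41. The 29 genes kept under both scalings include Serpinb9b, Ndrg1, Hmox1, Neat1, Itga3, Cd151, the 3 tubulins and Mgll. The 12 genes lost under at least 1 scaling were Creb5, Aqp5, Camk2a, Rnpc3, Tmem151a, Tfrc, Gm1840, Sft2d3, Zfp655 and Cracr2b under both, Tspan13 under quantile normalization and Sqstm1 under median-of-ratios scaling. Without D4 replicate 1 the rule took 89 genes, and without D4 replicate 2 it took 54, the 41 included. Leaving out a library can only add genes under this rule, so these counts do not test the membership of the 41.

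**Figure D2:**
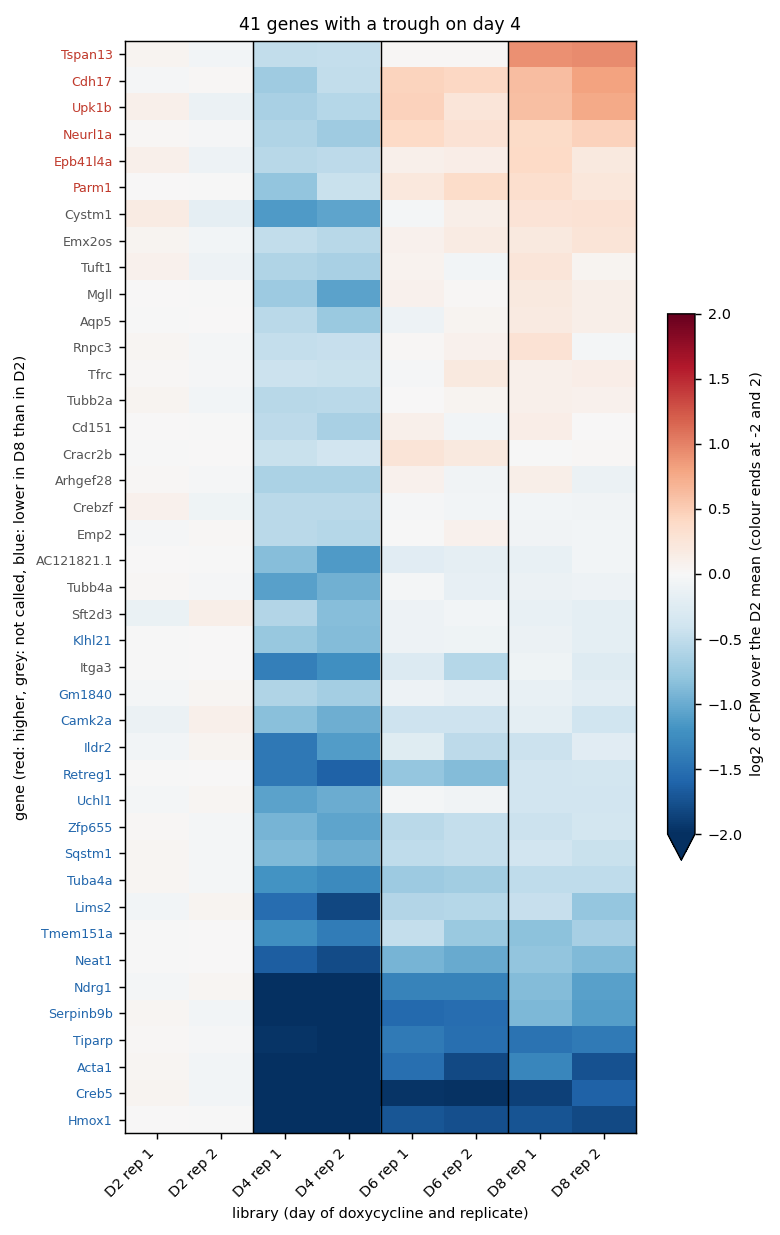
Each row is 1 of the 41 genes, ordered by the difference between D8 and D2, and each column is a library; colour gives log2 of the CPM over the D2 mean, from blue (lower) through white to red (higher), with the scale ending at -2 and 2. Symbols in red, grey and blue mark genes higher, not called and lower on D8 against D2; the D4 columns are blue in every row, and the rows part on D6 and D8.

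After the trough the genes parted into 3 courses. On D8 against D2, 6 of the 41 genes were higher, 18 were lower and 17 were not called by limma at an adjusted p under 0.05, while among all 15358 tested genes 47.3% were higher and 23.1% lower, and among the 10652 eligible genes 44.9% and 26.2%. The median difference on the log2(CPM + 1) scale was -0.11 for the 41 genes and 0.17 for all tested genes. For D6 against D2 the counts were 4 higher, 16 lower and 21 not called, beside 47.3% higher and 21.4% lower among all tested genes and 45.8% and 24.1% among the eligible, and the medians were -0.07 and 0.17. On D8 against D6, 4 genes were higher and 1 lower, beside 4.72% and 4.39% of all tested genes and 3.84% and 5.55% of the eligible, and the medians were 0.08 and -0.00096. All 41 genes passed the filter on low values, which the rule's minimum of 5 CPM ensures.

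These splits shift with the scaling of the libraries, since the median of all tested genes on D8 against D2 was 0.17 in CPM, -0.0040 with median-of-ratios scaling and -0.05 with quantile normalization. The counts of higher and lower genes on D8 against D2 were 6 and 18 in CPM, 4 and 25 with median-of-ratios scaling and 3 and 25 with quantile normalization. For D6 against D2 they were 4 and 16, 0 and 27, and 0 and 28. The added lower genes had not been called in CPM. A non-call or a return to D2 described below thus holds in CPM alone. Among all called genes the share that was higher on D8 than on D2 was 67.2% in CPM, 50.9% with median-of-ratios scaling and 45.1% with quantile normalization. The corresponding shares for D6 against D2 were 68.8%, 51.1% and 45.5%.

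The 18 genes that were lower on D8 than on D2, of which 15 were also called lower on D6 and Klhl21, Uchl1 and Gm1840 were not called then, had a D4 mean of 13.1% to 64.0% of the D2 mean, with a median of 37.7%. The 6 genes that ended higher had D4 means of 63.6% to 71.4% of D2, and the 17 genes that were not called had 40.8% to 74.9%. Set against D8 in place of D2 the order of higher and lower genes turned round, with a median D4 mean of 44.2% of the D8 mean in the higher genes, 62.0% in the lower genes and 63.2% in those not called. These classes and percentages share the D2 and D8 values, so they are a description only. Of the 20 genes called on D6 against D2, 13 kept their call under all 16 alternatives tried, as did 17 of the 24 called on D8 against D2 and 1 of the 5 called on D8 against D6.

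**Figure D3:**
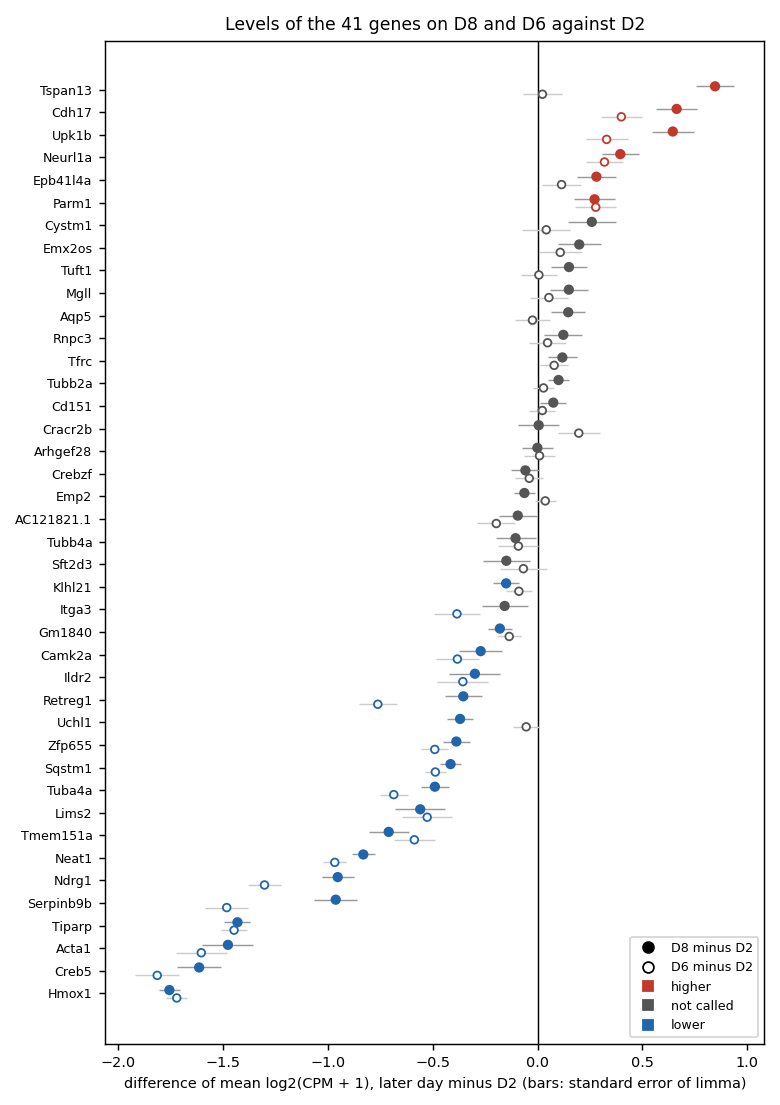
For each of the 41 genes, ordered as in the heat map, filled points give D8 minus D2 and open points D6 minus D2 as differences of mean log2(CPM + 1), with bars of 1 standard error from limma; red, grey and blue mark higher, not called and lower. The D8 differences run from -1.76 for Hmox1 to 0.85 for Tspan13, and Retreg1, Ndrg1, Serpinb9b and Tspan13 stand apart between the 2 days.

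In the plot of D8 and D6 against D2, the open and filled points of most genes lie close together, and 36 of the 41 genes were not called on D8 against D6. The 5 that were called are Tspan13, Serpinb9b, Retreg1 and Ndrg1, which were higher on D8, and Uchl1, which was lower. Of these 5 calls, that of Tspan13 alone held when any 1 library was left out.

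Promoter sequence was read for members that have an entry in the RefSeq table used here. It holds windows of 300 bases, 250 before and 50 after the annotated start, on build GRCm38.p6, and 26 of the 41 genes matched, with 34 windows. The letters TGACGTCA, the cAMP response element (CRE) bound by CREB and ATF proteins, were 1 of 14 motifs searched and read the same on both strands. It was chosen for display after the shares of all motifs were seen. It occurred in 4 of the 26 genes (15.4%), against 3.66% of the other eligible genes with a window and 1.79% of all windows in the table. The 4 genes are Creb5, Tubb2a, Retreg1 and Neurl1a. The stretches before the GENCODE M21 gene start are shown with the element in capitals, for Creb5 at chr6:53287053-53287269, plus strand, for Tubb2a at chr13:34078009-34078258, minus strand, for Retreg1 at chr15:25843048-25843179, plus strand, and for Neurl1a at chr19:47178570-47178819, plus strand.
Creb5: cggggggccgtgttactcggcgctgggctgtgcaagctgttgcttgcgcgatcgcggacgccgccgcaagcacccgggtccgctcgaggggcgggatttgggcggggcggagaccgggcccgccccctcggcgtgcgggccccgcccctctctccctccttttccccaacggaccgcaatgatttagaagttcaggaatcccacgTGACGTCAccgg
Tubb2a: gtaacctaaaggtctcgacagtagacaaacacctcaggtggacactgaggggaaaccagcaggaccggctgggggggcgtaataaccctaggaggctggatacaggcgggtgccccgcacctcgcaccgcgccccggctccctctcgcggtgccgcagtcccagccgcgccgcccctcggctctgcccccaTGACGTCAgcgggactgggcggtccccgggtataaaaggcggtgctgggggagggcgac
Retreg1: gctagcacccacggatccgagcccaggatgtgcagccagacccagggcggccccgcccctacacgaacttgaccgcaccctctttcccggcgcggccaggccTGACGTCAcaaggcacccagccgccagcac
Neurl1a: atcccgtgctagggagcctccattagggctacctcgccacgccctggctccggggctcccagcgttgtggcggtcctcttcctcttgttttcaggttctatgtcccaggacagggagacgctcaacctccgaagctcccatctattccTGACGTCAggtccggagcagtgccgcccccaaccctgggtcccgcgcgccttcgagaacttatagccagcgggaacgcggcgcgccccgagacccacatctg
The RefSeq and GENCODE starts differ in Creb5, in Retreg1 and slightly in Tubb2a. The element begins 45 bases before the RefSeq start and 12 before the GENCODE start in Creb5, and 148 and 30 bases before them in Retreg1. In Tubb2a it begins 59 bases before the RefSeq start, and the GENCODE start, at 34078007, lies just downstream of the RefSeq start. In Neurl1a it begins 102 bases before either start. On D8 against D2 these 4 genes did not move alike, since Creb5 and Retreg1 were lower, Neurl1a was higher and Tubb2a was not called. These are matches of letters in a window, with no measurement of binding.

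The 13 other motifs were also searched on both strands, and each share among the 26 genes is set against that among other eligible genes. For all 14 motifs a gene counted where any of its windows held the letters. The AP-1 letters TGANTCA occurred in Creb5, Itga3, Klhl21 and Retreg1 (15.4%), against 5.72% of other eligible genes. In Creb5, Itga3 and Retreg1 they lay only in a window at a further annotated start inside the gene. Klhl21 held them in the window at the gene start. The E-box CACGTG, whose last 5 letters are also the hypoxia response element ACGTG, occurred in Aqp5, Creb5, Ildr2, Mgll and Retreg1 (19.2%), against 12.4%, while ACGTG itself occurred in 30.8% against 30.5%. In Retreg1 the E-box too lay only in a window inside the gene. The antioxidant response element TGACNNNGC was present in Crebzf, Emp2, Tmem151a and Tubb4a (15.4%), against 16.9%. CCAAT was present in 4 genes (15.4%), against 43.1%. The heat shock element occurred in Uchl1 alone (3.85%), against 0.497%, and the ATF4 composite element TGATGNAAN in Creb5 alone (3.85%), against 2.60%. The TATA letters TATAAA occurred in 4 genes (15.4%), against 8.04%, and the TEAD letters GGAATG in Acta1 and Creb5 (7.69%), against 14.3%. In Creb5 the TEAD letters lay only in the window inside the gene. The ETS letters CCGGAAG occurred in 6 genes (23.1%), against 22.04%, the GC box GGGCGG in 20 (76.9%), against 72.5%, and the second hypoxia form GCGTG in 13 of the 26, against 58.7%. The NRF1 motif occurred in 0 of the 26, against 2.47%.

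Among genes of haem, iron and oxidant handling, Hmox1 ended farthest below D2, and it did so among all 41 genes too. Coordinates are on mm10, from GENCODE M21. Hmox1 (chromosome 8, 75093621 to 75100589) encodes haem oxygenase, which splits haem into biliverdin, carbon monoxide and iron and is a known target of the oxidant sensor NRF2. It stood at 305 and 303 CPM on D2, 62.3 and 60.3 CPM on D4, 93.0 and 90.1 CPM on D6, and 91.6 and 87.1 CPM on D8. Both D4 libraries lay below all others, and the D6 and D8 libraries lay close together, far below D2. It was lower on D8 than on D2 by limma (log2 difference -1.76 ± 0.05 SE, adjusted p = 3.7e-12), and D8 and D6 did not differ past the threshold (log2 difference -0.04 ± 0.05 SE, adjusted p = 0.69). The D4 mean was 20.1% of the D2 mean, and the D8 mean 29.4%. The related gene Hmox2, the constitutive haem oxygenase, averaged 36.9, 38.0, 35.2 and 36.2 CPM on D2, D4, D6 and D8, with no dip on D4.

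Sqstm1 (chromosome 11, 50199366 to 50210827), which encodes p62, an autophagy receptor that also binds the NRF2 inhibitor Keap1, had a wide but shallow trough. Its levels were 486 and 458 CPM on D2, 256 and 239 CPM on D4, 334 and 339 CPM on D6, and 361 and 347 CPM on D8. No 2 days overlapped, and D6 and D8 lay next to each other. It was lower on D8 than on D2 (log2 difference -0.42 ± 0.05 SE, adjusted p = 8.2e-06). In its exons 17.3% of the bases overlap Mrnip on the opposite strand, and since the strandedness of the counting is not given in the sources used here, reads of the 2 genes cannot be told apart, though Mrnip itself was listed at 1.33 to 2.36 CPM on the 4 days.

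Tfrc (chromosome 16, 32608920 to 32632794), the transferrin receptor through which cells take up iron, came back on D6. It held 52.3 and 50.8 CPM on D2, 38.3 and 37.8 CPM on D4, 50.5 and 58.8 CPM on D6, and 55.3 and 56.8 CPM on D8. Only the D4 libraries stood apart, and D8 did not differ from D2 past the threshold (log2 difference 0.12 ± 0.07 SE, adjusted p = 0.14). Among 11 eligible genes on a list for iron and metallothioneins, Hmox1 and Tfrc were the 2 members (18.2%), beside 0.385% of all eligible genes. Tfrc no longer met the rule under median-of-ratios scaling or quantile normalization, while Hmox1 met it under both. Both D4 libraries lay below all others in 5 of the 11, beside 9.02% of all eligible genes. Of the 11 other tested genes of that list, 10 were higher and 1 was lower on D8 than on D2. The shares among all tested genes were 47.3% and 23.1%. The median difference was 0.65 for these 11 genes, beside 0.17 for all tested genes. Counts for this and the other lists are in CPM, and the other scalings were not applied to them. Ftl1, the ferritin light chain, averaged 784, 457, 636 and 589 CPM on D2, D4, D6 and D8, with its lowest day on D4 but a ratio of 1.14. The ferritin heavy chain Fth1 averaged 413, 414, 636 and 649 CPM on D2, D4, D6 and D8, and its D2 and D4 means were alike.

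Other NRF2-linked genes took different courses. Of 29 eligible genes on the antioxidant list 1 was a member, Hmox1. In 11 both D4 libraries lay below all others, beside 9.02% of all eligible genes. On D8 against D2, 16 of the 29 other tested genes of the list were higher and 8 lower, beside 47.3% and 23.1% of all tested genes. Their median difference was 0.27, beside 0.17 for all tested genes. Gclm, just outside the rule, averaged 72.4, 53.4, 72.5 and 76.3 CPM on D2, D4, D6 and D8. Txnrd1, thioredoxin reductase, averaged 343, 167, 157 and 148 CPM on D2, D4, D6 and D8, with its later means close to that of D4, and was lower on D8 than on D2 (log2 difference -1.20, adjusted p = 1e-10). Nqo1, a quinone reductase, averaged 32.4, 43.0, 62.8 and 72.6 CPM on D2, D4, D6 and D8, and was higher on D8 than on D2 (log2 difference 1.14, adjusted p = 3.4e-07). Bach1, a repressor of Hmox1, averaged 85.1, 47.5, 45.9 and 41.5 CPM on D2, D4, D6 and D8. The relatives named in this and other paragraphs were grouped into families that were chosen after the members' values had been seen.

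**Figure D4:**
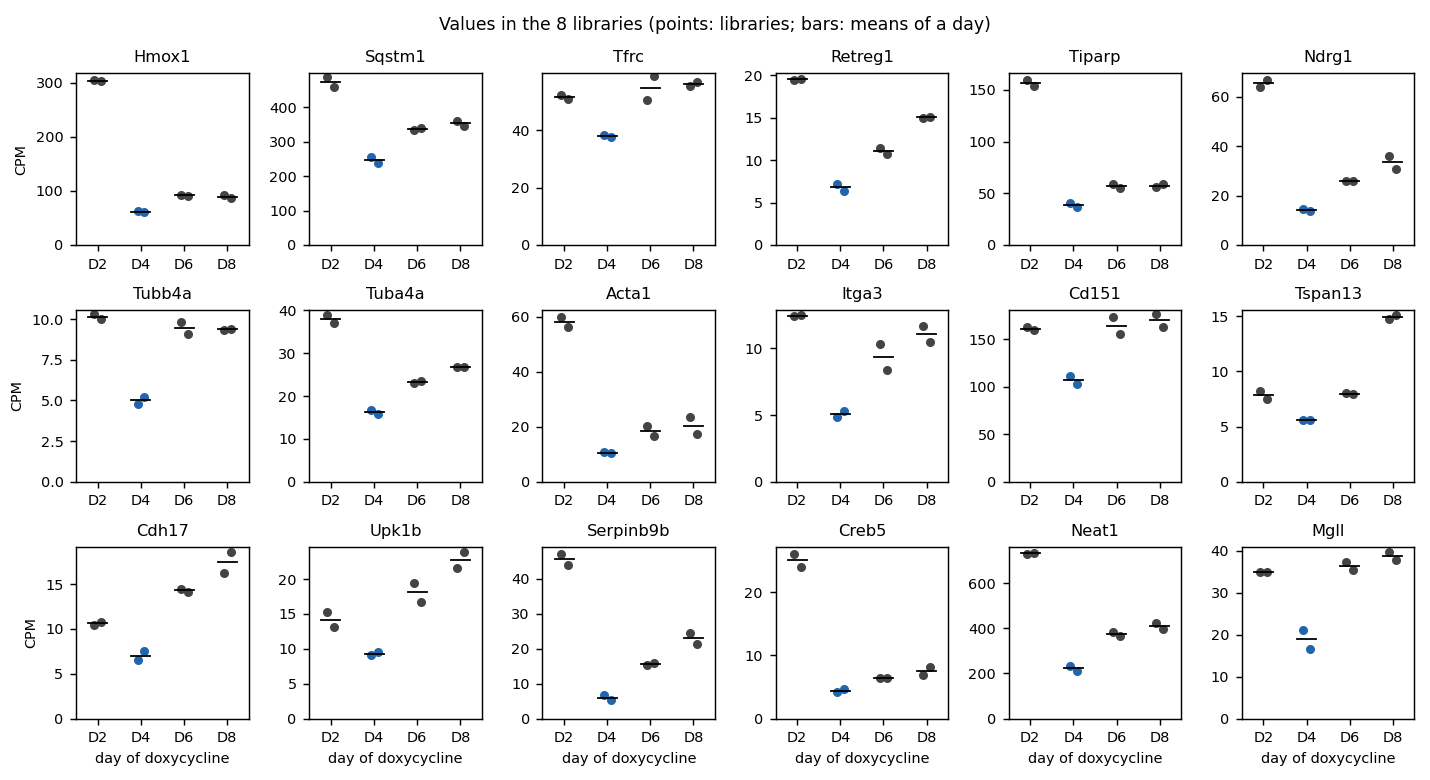
CPM of 18 of the 41 genes in each library (points; D4 in blue, other days in dark grey), with a bar at the mean of each day, on linear axes that start at 0. Hmox1, Creb5, Acta1 and Tiparp stay far below D2 after the dip, Tfrc, Cd151, Tubb4a and Mgll come back near it, and Tspan13, Cdh17 and Upk1b end above it.

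The plot of values by library shows these courses gene by gene. Retreg1 (chromosome 15, 25843180 to 25973687), a membrane receptor that hands parts of the endoplasmic reticulum to autophagy, climbed in steps after D4. It stood at 19.5 and 19.6 CPM on D2, 7.24 and 6.37 CPM on D4, 11.5 and 10.7 CPM on D6, and 15.0 and 15.1 CPM on D8. No 2 days overlapped. It was higher on D8 than on D6 (log2 difference 0.41 ± 0.09 SE, adjusted p = 0.017), yet lower on D8 than on D2 (log2 difference -0.35 ± 0.09 SE, adjusted p = 0.003). The call on D8 against D6 was lost without any 1 of the 4 libraries of those days. Its relatives Retreg2 and Retreg3 showed no dip, with means of 43.9, 54.6, 63.5 and 65.1 CPM on D2, D4, D6 and D8 for Retreg2 and 31.5, 40.6, 41.2 and 40.3 CPM on D2, D4, D6 and D8 for Retreg3. Of 13 eligible genes taken as autophagy receptors and their partners, Sqstm1 and Retreg1 were the members. In 6 of the 13 both D4 libraries lay below all others, beside 9.02% of all eligible genes. That count includes the members, and the family was chosen after their values were seen, so it is a description only. On the list for the lysosome, where Sqstm1 was the member among 30 eligible genes, 4 of the 29 other tested genes were higher and 17 lower on D8 than on D2. The shares among all tested genes were 47.3% higher and 23.1% lower.

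Tiparp (chromosome 3, 65528410 to 65555518) encodes a mono-ADP-ribosyltransferase that is induced by the aryl hydrocarbon receptor (AHR) and represses it. It held 160.0 and 153 CPM on D2, 40.4 and 36.5 CPM on D4, 58.7 and 55.0 CPM on D6, and 56.2 and 58.7 CPM on D8. The D2 libraries stood far above the rest, and D6 and D8 overlapped at a level between D4 and D2, nearer to D4. D8 was lower than D2 (log2 difference -1.43 ± 0.06 SE, adjusted p = 2.3e-10). Ahr itself averaged 56.4, 76.3, 50.9 and 48.7 CPM on D2, D4, D6 and D8, with its highest mean on D4. Cyp1b1, a further AHR target, averaged 474, 291, 325 and 379.5 CPM on D2, D4, D6 and D8, with its lowest mean on D4 and a ratio of 1.03. Ahrr, the repressor gene of the same pathway, averaged 15.7, 3.63, 2.74 and 2.07 CPM on D2, D4, D6 and D8, and did not return after D2.

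Ndrg1 (chromosome 15, 66929318 to 66969640), a cytoplasmic protein gene named for its repression by N-Myc and known to rise in hypoxia, had the third largest ratio, 1.77. Its values were 64.0 and 66.8 CPM on D2, 14.6 and 13.8 CPM on D4, 25.9 and 26.0 CPM on D6, and 35.9 and 30.8 CPM on D8. No 2 days overlapped, and each later day stood above D4. It was higher on D8 than on D6 (log2 difference 0.35 ± 0.08 SE, adjusted p = 0.017) and lower on D8 than on D2 (log2 difference -0.95 ± 0.08 SE, adjusted p = 1.2e-07). The call on D8 against D6 was lost without D6 replicate 1, D6 replicate 2 or D8 replicate 1. It was the only member among 26 eligible genes of the hypoxia list. Of these 26, 4 had both D4 libraries below all others, beside 9.02% of all eligible genes. The 27 other tested genes of that list held 4 that were higher and 20 that were lower on D8 than on D2. Among all tested genes 47.3% were higher and 23.1% lower. Ldha, lactate dehydrogenase of that list, averaged 955, 270.2, 258 and 251 CPM on D2, D4, D6 and D8, without a return. Within its family, Ndrg3 averaged 49.9, 60.8, 66.3 and 70.7 CPM on D2, D4, D6 and D8 and Ndrg4 130.2, 100.1, 104 and 109 CPM on D2, D4, D6 and D8.

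The deepest trough was that of Serpinb9b (chromosome 13, 33027416 to 33041884), an intracellular inhibitor of serine proteases of serpin clade B. It stood at 47.1 and 44.1 CPM on D2, 6.69 and 5.23 CPM on D4, 15.4 and 15.9 CPM on D6, and 24.5 and 21.3 CPM on D8. The D4 mean was 13.1% of the D2 mean and 26.0% of the D8 mean, and no 2 days overlapped. It was higher on D8 than on D6 (log2 difference 0.52 ± 0.10 SE, adjusted p = 0.011) and lower on D8 than on D2 (log2 difference -0.96 ± 0.10 SE, adjusted p = 2.1e-06). The call on D8 against D6 was lost without D6 replicate 1, D6 replicate 2 or D8 replicate 1. Its close relative Serpinb9, known as an inhibitor of granzyme B, averaged 8.46, 14.4, 14.2 and 17.9 CPM on D2, D4, D6 and D8, with the lowest mean on D2. The other near copies Serpinb9e, Serpinb9f and Serpinb9g stayed under 0.5 CPM on average on each day. The lowest library of Serpinb9b, D4 replicate 2, held 104.25 reads, so its reads were not all counted whole. How the counting shared reads between such copies is not given in the sources used here.

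In the cytoskeleton, 3 of 12 eligible tubulin genes met the rule, and in 7 of the 12 both D4 libraries lay below all others. Among all eligible genes these shares were 0.385% and 9.02%. The tubulin family was chosen after the members' values were seen, and both counts include the members, so they are a description only. Tubulins are the subunits of microtubules, and their genes are near copies, so their split between genes is uncertain. Tubb4a (chromosome 17, 57080066 to 57087782), a beta-tubulin known mainly from brain, held 10.3 and 10.01 CPM on D2, 4.79 and 5.20 CPM on D4, 9.84 and 9.09 CPM on D6, and 9.31 and 9.41 CPM on D8. The D4 mean was 49.2% of the D2 mean, and D8 did not differ from D2 past the threshold (log2 difference -0.11 ± 0.10 SE, adjusted p = 0.34). Tubb2a (chromosome 13, 34074274 to 34078007), a second beta-tubulin, held 129 and 120.2 CPM on D2, 85.0 and 85.4 CPM on D4, 125 and 129 CPM on D6, and 134 and 133 CPM on D8. It too returned, with no call on D8 against D2 (log2 difference 0.10 ± 0.05 SE, adjusted p = 0.093).

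Tuba4a (chromosome 1, 75214228 to 75219865), an alpha-tubulin, returned in part. Its values were 38.9 and 37.1 CPM on D2, 16.7 and 15.7 CPM on D4, 23.0 and 23.5 CPM on D6, and 26.8 and 26.8 CPM on D8. D8 was lower than D2 (log2 difference -0.49 ± 0.07 SE, adjusted p = 2.4e-05). Stk16 lies on the opposite strand and overlaps 37.3% of its exon bases, and averaged 42.7, 51.0, 56.6 and 49.5 CPM on D2, D4, D6 and D8, so it had no dip on D4. The more abundant Tubb5 averaged 1072, 799, 862 and 771 CPM on D2, D4, D6 and D8, and Tuba1a 350.1, 227, 284 and 291 CPM on D2, D4, D6 and D8. Per kilobase of exon, the D2 level was 322 CPM for Tubb5, 77.4 CPM for Tubb2a, 10.3 CPM for Tuba4a and 4.55 CPM for Tubb4a. Tubb3 and Tubb6 were lower on D8 than on D2 without a trough (Tubb3 log2 difference -1.92, adjusted p = 6.9e-12, and Tubb6 log2 difference -1.91, adjusted p = 2.5e-12). On the list of tubulins and motors, 1 of the 15 other tested genes was higher and 8 were lower on D8 than on D2. Among all tested genes 47.3% were higher and 23.1% lower.

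**Figure D5:**
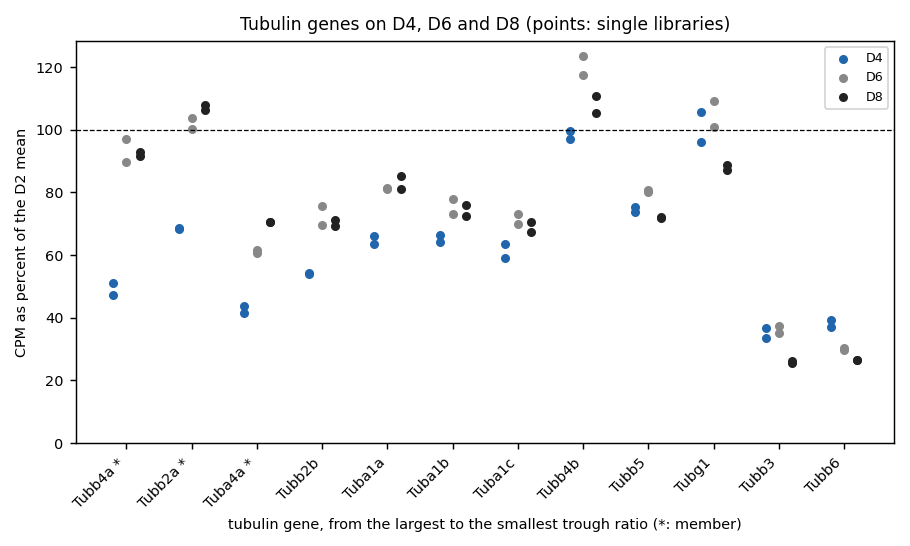
CPM of the 12 eligible tubulin genes on D4, D6 and D8 as percent of the D2 mean (points: single libraries; dashed line: the D2 mean), ordered by trough ratio, with members starred. Tubb4a and Tubb2a return to the D2 level, Tuba4a and Tubb2b return in part, and Tubb3 and Tubb6 stay low from D4 on.

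The plot of tubulin genes places the 3 members at one end of a range rather than apart from it, since Tubb2b, Tuba1a, Tuba1b and Tuba1c also had both D4 libraries below all others at ratios of 1.06 to 1.28. Acta1 (chromosome 8, 123891769 to 123894751), the skeletal muscle alpha-actin, held 60.0 and 56.2 CPM on D2, 10.8 and 10.4 CPM on D4, 20.3 and 16.7 CPM on D6, and 23.5 and 17.4 CPM on D8. It was lower on D8 than on D2 (log2 difference -1.48 ± 0.12 SE, adjusted p = 1.5e-07), and its D6 and D8 libraries overlapped. Its near copy Acta2, smooth muscle alpha-actin, averaged 2394, 512, 579 and 689.8 CPM on D2, D4, D6 and D8, with a ratio of 1.03, and reads of the 2 may be shared by the counting. The muscle markers Myod1, Myog and Des summed to 6.87 and 7.02 CPM on D2 and to 1.10 to 1.75 CPM in the later libraries, nearly all of it Des, and their part in the Acta1 values was not tested. Of 35 eligible genes on the actin and contraction list none met the rule, beside 0.385% of all eligible genes. All 36 tested were lower on D8 than on D2, beside 23.1% of all tested genes.

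Lims2, on chromosome 18, encodes a LIM adaptor (PINCH2) that binds integrin-linked kinase at adhesion sites. It held 11.2 and 12.2 CPM on D2, 4.07 and 3.33 CPM on D4, 7.79 and 7.85 CPM on D6, and 8.48 and 6.84 CPM on D8. Its lowest library held 66.5 reads, the fewest of any member, and D8 was lower than D2 (log2 difference -0.56 ± 0.12 SE, adjusted p = 0.00087). Its paralog Lims1 averaged 186, 131, 141 and 144 CPM on D2, D4, D6 and D8, and the kinase gene Ilk 105, 66.4, 61.0 and 57.0 CPM on D2, D4, D6 and D8. Arhgef28 held 99.8 and 96.2 CPM on D2, 63.3 and 63.0 CPM on D4, 104 and 93.2 CPM on D6, and 106 and 90.0 CPM on D8. Outside D4 its libraries overlapped between days, with no difference on D8 against D2 past the threshold (log2 difference -0.00 ± 0.07 SE, adjusted p = 0.99). Klhl21, an adaptor of a Cullin 3 ubiquitin ligase with a role in cell division, averaged 48.2, 27.5, 45.2 and 43.3 CPM on D2, D4, D6 and D8. Its call on D8 against D2 (log2 difference -0.15 ± 0.06 SE, adjusted p = 0.042) was lost when any library of D2, D6 or D8 was left out, and 20.5% of its exon bases overlap Gm9768 on the opposite strand. Epb41l4a, a FERM domain protein gene, averaged 16.9, 11.7, 18.4 and 20.8 CPM on D2, D4, D6 and D8. It was higher on D8 than on D2 in CPM (log2 difference 0.28 ± 0.09 SE, adjusted p = 0.015), a call lost under both other scalings and without D2 replicate 2 or D8 replicate 1.

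At the membrane, Itga3 and Cd151, whose proteins bind each other, both met the rule. Itga3 (chromosome 11, 95044474 to 95076801), the alpha 3 chain that joins beta 1 to form a laminin-binding integrin, held 12.4 and 12.5 CPM on D2, 4.84 and 5.31 CPM on D4, 10.3 and 8.39 CPM on D6, and 11.7 and 10.5 CPM on D8. The D6 libraries lay between those of D4 and those of D2, and they were lower than D2 (log2 difference -0.38 ± 0.11 SE, adjusted p = 0.007), though not without D6 replicate 2, while D8 was not called (log2 difference -0.16 ± 0.11 SE, adjusted p = 0.22). Cd151 (chromosome 7, 141467392 to 141471473), a tetraspanin that is known to bind laminin-binding integrins, held 163 and 159.7 CPM on D2, 112 and 103 CPM on D4, 173 and 155 CPM on D6, and 177 and 163 CPM on D8. Its libraries of D2, D6 and D8 overlapped, and D8 did not differ from D2 past the threshold (log2 difference 0.07 ± 0.06 SE, adjusted p = 0.3). The partner chain Itgb1 averaged 2507, 918, 778 and 810.1 CPM on D2, D4, D6 and D8, and the other laminin-binding chains took other courses, with Itga6 at 170.4, 119, 113 and 95.0 CPM on D2, D4, D6 and D8 and Itgb4 at 342, 786, 916 and 824 CPM on D2, D4, D6 and D8. The neighbour of Cd151 on chromosome 7, Cracr2b, lies 778 bases away and is itself a member, and both overlap the opposite-strand transcript Gm10575, Cd151 over 7.04% of its exon bases.

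The 6 genes that ended above D2 were Tspan13, Cdh17, Upk1b, Neurl1a, Epb41l4a and Parm1. Tspan13 (chromosome 12, 36014557 to 36042500), a tetraspanin, held 8.18 and 7.52 CPM on D2, 5.59 and 5.62 CPM on D4, 7.996 and 7.98 CPM on D6, and 14.7 and 15.1 CPM on D8. D6 lay within the range of D2, and D8 was higher than D6 (log2 difference 0.82 ± 0.09 SE, adjusted p = 0.0003). Cdh17 (chromosome 4, 11758147 to 11817895), the liver and intestine cadherin, held 10.4 and 10.8 CPM on D2, 6.49 and 7.52 CPM on D4, 14.5 and 14.1 CPM on D6, and 16.3 and 18.6 CPM on D8. It was higher on D8 than on D2 (log2 difference 0.66 ± 0.10 SE, adjusted p = 4.2e-05). Upk1b (chromosome 16, 38773184 to 38800328), a uroplakin tetraspanin of the bladder lining, held 15.3 and 13.1 CPM on D2, 9.09 and 9.53 CPM on D4, 19.4 and 16.7 CPM on D6, and 21.5 and 23.9 CPM on D8. It was also higher on D8 than on D2 (log2 difference 0.64 ± 0.10 SE, adjusted p = 6.8e-05). On D6 against D2 the calls of Cdh17 and Upk1b were lost under both other scalings, and that of Upk1b also without D2 replicate 2 or D6 replicate 1.

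The summed level of the epithelial markers Cdh1, Epcam, Krt8 and Krt18 was 6.70 and 8.74 CPM on D2, 40.7 and 48.2 CPM on D4, 108 and 131 CPM on D6, and 158 and 168 CPM on D8. Krt18 and Epcam stayed under 1 CPM. This sum climbed through D4, where Cdh17, Upk1b and Tspan13 dipped, and its part in their later rise was not tested. The tetraspanins were grouped as a family after the members' values were seen, so counts in it, which include the members, are a description only. Of 19 eligible tetraspanin genes, 3 had both D4 libraries below all others, beside 9.02% of all eligible genes. These were Cd151, Upk1b and Tspan13, and all 3 met the rule. None of 5 eligible genes on the epithelial list did, beside 0.385% of all eligible genes.

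In CPM, Emp2, Aqp5 and Tuft1 returned to near D2, and Parm1 ended above it. Emp2, of the PMP22 family of membrane proteins, held 123 and 128 CPM on D2, 85.9 and 83.9 CPM on D4, 124 and 133 CPM on D6, and 119 and 121 CPM on D8. It was not called on D8 against D2 (log2 difference -0.06 ± 0.05 SE, adjusted p = 0.29), and its relatives Emp1 and Emp3 had ratios of 0.80 and 0.92. Aqp5, a water channel of gland and lung epithelium, averaged 28.2, 18.2, 27.8 and 31.3 CPM on D2, D4, D6 and D8, and Tuft1, tuftelin, first known from tooth enamel, averaged 29.5, 19.2, 29.6 and 32.8 CPM on D2, D4, D6 and D8. Neither was called in any comparison between D2, D6 and D8. Parm1, a mucin-like protein gene, held 25.2 and 24.8 CPM on D2, 14.5 and 18.4 CPM on D4, 29.0 and 32.1 CPM on D6, and 31.5 and 29.3 CPM on D8. It was called higher on D8 than on D2 (log2 difference 0.27 ± 0.10 SE, adjusted p = 0.024), a call lost under both other scalings and without D2 replicate 1, D2 replicate 2 or D8 replicate 1.

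Cystm1, a small transmembrane protein gene on chromosome 18, had the second largest ratio, 1.83. It held 9.18 and 7.28 CPM on D2, 3.75 and 3.97 CPM on D4, 8.01 and 8.90 CPM on D6, and 9.90 and 10.1 CPM on D8. Its D4 libraries held few reads, 75 at the lowest, and D8 was not called against D2 (log2 difference 0.26 ± 0.11 SE, adjusted p = 0.059). Sft2d3, a putative vesicle transport gene beside Lims2, averaged 7.83, 4.78, 7.40 and 6.94 CPM on D2, D4, D6 and D8 and was not called in any comparison. Ildr2, an immunoglobulin-like receptor gene of the angulin family, held 13.6 and 14.7 CPM on D2, 5.27 and 6.54 CPM on D4, 12.0 and 9.80 CPM on D6, and 10.6 and 12.1 CPM on D8. It was lower on D8 than on D2 (log2 difference -0.30 ± 0.12 SE, adjusted p = 0.041), but not without D2 replicate 1, D2 replicate 2 or D8 replicate 1. Tmem151a, a transmembrane protein gene, averaged 30.7, 12.4, 20.2 and 18.4 CPM on D2, D4, D6 and D8, and was lower on D8 than on D2 (log2 difference -0.71 ± 0.10 SE, adjusted p = 1.9e-05).

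Among enzymes and signalling genes, Mgll (chromosome 6, 88724412 to 88828360) dipped and came back. It encodes monoacylglycerol lipase, which degrades the endocannabinoid 2-arachidonoylglycerol. Its values were 35.0 and 34.8 CPM on D2, 21.1 and 16.6 CPM on D4, 37.2 and 35.3 CPM on D6, and 39.7 and 37.9 CPM on D8. The D4 replicates differed from each other by more than those of the other days, and both lay below all other libraries. D8 did not differ from D2 past the threshold (log2 difference 0.15 ± 0.09 SE, adjusted p = 0.16). Abhd6 and Dagla, which degrade and make the same lipid, had no dip, at 8.72, 12.5, 17.8 and 18.1 CPM on D2, D4, D6 and D8 for Abhd6 and 18.6, 42.2, 49.9 and 45.2 CPM on D2, D4, D6 and D8 for Dagla.

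Uchl1 (chromosome 5, 66676091 to 66687234), a ubiquitin hydrolase abundant in neurons, returned on D6 and then fell again. It held 45.2 and 47.6 CPM on D2, 22.2 and 23.4 CPM on D4, 45.2 and 44.0 CPM on D6, and 35.6 and 35.8 CPM on D8. It was lower on D8 than on D6 (log2 difference -0.32 ± 0.06 SE, adjusted p = 0.0094), the only member with that call, and the call was lost without D6 replicate 1 and without D8 replicate 1. Its antisense partner Uchl1os, which overlaps 18.1% of its exon bases, averaged 2.77, 1.11, 2.56 and 2.08 CPM on D2, D4, D6 and D8, and without strand the reads of the 2 cannot be told apart. Uchl1 was the only member among 25 eligible genes on the ubiquitin list, of whose 24 other tested genes 10 were higher and 9 lower on D8 than on D2. The shares among all tested genes were 47.3% higher and 23.1% lower. Neurl1a (chromosome 19, 47178820 to 47259441), a ubiquitin ligase gene, held 11.4 and 11.1 CPM on D2, 7.39 and 6.90 CPM on D4, 14.8 and 13.8 CPM on D6, and 14.6 and 15.5 CPM on D8. It was higher on D8 than on D2 in CPM (log2 difference 0.39 ± 0.09 SE, adjusted p = 0.0014), a call lost with quantile normalization. Its D6 difference (log2 difference 0.32 ± 0.09 SE, adjusted p = 0.0061) turned to -0.0063 there and lost its call under both other scalings and without D6 replicate 1.

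Camk2a, on chromosome 18, encodes the alpha chain of the calcium and calmodulin-dependent kinase II, best known from neurons. It averaged 14.8, 7.88, 11.1 and 12.1 CPM on D2, D4, D6 and D8, and was lower on D8 than on D2 (log2 difference -0.27 ± 0.10 SE, adjusted p = 0.032), but not without D2 replicate 2 or without D8 replicate 2. The chains Camk2d and Camk2g, with means of 147, 143, 129 and 127 CPM on D2, D4, D6 and D8 and 112, 78.0, 69.0 and 66.7 CPM on D2, D4, D6 and D8, had no trough. The neural markers Tubb3, Map2 and Sox10 summed to 278 and 281 CPM on D2, 209 and 219 CPM on D4, 184 and 192 CPM on D6, and 164 and 170.0 CPM on D8, with Sox10 at most 0.564 CPM, and their part in the values of Camk2a, Uchl1 and Tubb4a was not tested. Cracr2b, a calcium-binding relative of the calcium channel regulator Cracr2a, averaged 5.85, 4.38, 6.85 and 5.88 CPM on D2, D4, D6 and D8. It was not called in any comparison, was the gene closest to the threshold of the rule, and 50.8% of its exon bases overlap the opposite-strand transcript Gm10575, which averaged 10.3, 8.43, 12.0 and 11.9 CPM on the 4 days.

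In the nucleus, Creb5 (chromosome 6, 53287270 to 53700376), a bZIP factor of the CREB and ATF family, stayed far below D2 on every later day. It held 26.1 and 24.0 CPM on D2, 4.19 and 4.66 CPM on D4, 6.41 and 6.39 CPM on D6, and 6.85 and 8.20 CPM on D8. The D4 mean was 17.7% and the D8 mean 30.0% of the D2 mean, and D8 was lower than D2 (log2 difference -1.61 ± 0.11 SE, adjusted p = 1.5e-08). It no longer met the rule under either other scaling. Crebzf, a second bZIP factor gene, held 44.0 and 39.1 CPM on D2, 28.5 and 28.5 CPM on D4, 40.8 and 39.8 CPM on D6, and 39.9 and 39.6 CPM on D8. Outside D4 its libraries overlapped, with no call on D8 against D2 (log2 difference -0.06 ± 0.07 SE, adjusted p = 0.45). Of 12 eligible CREB and ATF genes these 2 were members and 3 had both D4 libraries below all others. Among all eligible genes 9.02% had both D4 libraries below all others. The CREB and ATF family was chosen after the members' values were seen, and the 3 include the 2 members, so this is a description only. Creb1 averaged 41.5, 46.0, 50.4 and 53.4 CPM on D2, D4, D6 and D8. The zinc finger gene Zfp655 averaged 56.5, 28.5, 39.9 and 42.9 CPM on D2, D4, D6 and D8, and was lower on D8 than on D2 (log2 difference -0.39 ± 0.06 SE, adjusted p = 0.00011).

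Neat1 (chromosome 19, 5824708 to 5845478), the long noncoding RNA on which nuclear paraspeckles are built, was the most abundant of the 41 genes in CPM. It held 730.0 and 736 CPM on D2, 233 and 213 CPM on D4, 383 and 366 CPM on D6, and 424 and 399 CPM on D8. No 2 days overlapped, and D8 was lower than D2 (log2 difference -0.83 ± 0.05 SE, adjusted p = 1.6e-08). Malat1, another nuclear RNA, was highest on D4, at 769 and 1594 CPM, with replicates far apart, and averaged 602, 1181, 549 and 792 CPM on D2, D4, D6 and D8. The paraspeckle protein genes Sfpq and Nono had no trough, at 218, 234, 251 and 236 CPM on D2, D4, D6 and D8 for Sfpq and 249.5, 237, 248 and 253 CPM on D2, D4, D6 and D8 for Nono. Neat1 was the only member among 16 eligible genes of the list of snoRNA hosts and nuclear RNAs, of whose 15 other tested genes 5 were higher and 1 lower on D8 than on D2. The shares among all tested genes were 47.3% higher and 23.1% lower.

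Rnpc3, a protein of the minor spliceosome, averaged 28.2, 20.5, 29.2 and 31.0 CPM on D2, D4, D6 and D8, and was not called in any comparison. It shares 17.0% of its exon bases with Amy1 on the same strand. Emx2os, transcribed opposite to the homeobox gene Emx2, averaged 6.03, 4.18, 6.57 and 7.06 CPM on D2, D4, D6 and D8, and Emx2 itself 28.0, 16.2, 18.6 and 18.6 CPM, with 5.26% of the exon bases of Emx2os shared. Emx2os was not called in any comparison. The processed pseudogene Gm1840 averaged 64.7, 41.4, 58.8 and 57.0 CPM on D2, D4, D6 and D8, and was lower on D8 than on D2 (log2 difference -0.18 ± 0.06 SE, adjusted p = 0.013), but not without D2 replicate 2 or D8 replicate 2. AC121821.1, a processed transcript on chromosome 18 whose exons hold Snora74a, averaged 22.9, 11.5, 19.8 and 21.4 CPM on D2, D4, D6 and D8, with a ratio of 1.54 and no call.

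By annotation 37 of the 41 genes were protein coding. Median exon length was 4261 bases, against 4638 for the other eligible genes. Of the 41, 6 lay on chromosome 18 (14.6%), against 2.73% of the other eligible genes, and they are Cystm1, Lims2, Sft2d3, AC121821.1, Epb41l4a and Camk2a. Sft2d3 and Lims2 lie 10465 bases apart, and Cracr2b and Cd151 were the only other adjacent pair of members. Over 38 gene lists, 8 of the 41 genes stood on any list and 33 on none, and 7 lists held a member. Of the 10652 eligible genes, 822 stood on any list. Among these 822 the share of members was 0.973%, beside 0.385% of all eligible genes. The lists were chosen with earlier results of these data known, so these shares are a description only. No member came from the lists for glycolysis (0 of 21 eligible genes), interferon response (0 of 10), fibroblast matrix (0 of 27) or mitosis (0 of 25). With 0.385% of eligible genes taken, a list without a member is the usual case, and 31 of the 38 lists held none.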

How the data were processed

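RNA was measured by bulk RNA-seq in 8 libraries, 2 each on D2, D4, D6 and D8. Per the submitters' processing notes, Trimmomatic 0.39 and featureCounts were used on mm10; no source used here names the aligner or the strandedness of counting. The deposited table gives CPM, made by the authors from gene counts. Its name says TPM, but each column sums to 1000000 with no division by gene length. Depth was 19409936 to 20161021 reads a library, and 3 reads stand for 0.149 to 0.155 CPM. Whole reads came back for under 55% of the values, so no count test was run. All 8 value columns were mapped to samples.

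The 15358 genes that reached 1 CPM in 2 or more libraries were tested with limma 3.58.1 in R 4.3.3 on log2(CPM + 1), with one coefficient a day, 4 residual degrees of freedom, an intensity trend and two-sided p-values adjusted by Benjamini and Hochberg. Genes were called at an adjusted p under 0.05. Python 3.11.15, pandas 2.3.3 and numpy 2.4.6 were used for the rest, and the model was checked on simulated data. Alternatives were another pseudocount, other filters, median-of-ratios and quantile scaling, no trend, the replicate block, only the days compared, and each library left out.

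The named genes were the 20 deepest members, the 5 largest called differences in each direction for each comparison, the 5 most abundant, members on the gene lists, and the 5 genes on each side of the threshold; the other members were added so that all are accounted for. Members and lists were chosen with earlier results of these data known, and families after the members' values were seen. Symbols were matched to the gene identifiers from a separate list of gene names for 32029 genes, and 79 had none. Promoter windows are from RefSeq.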

Additional observations from a re-analysis of the deposited data

How the results depend on the processing

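The rule took 41 genes, 11 at a factor of 1.5, 81 at 1.2, 79 with a minimum of 1 CPM, 21 with a minimum of 20 CPM, and 43 to 89 when 1 library was left out, with the 89 reached without D4 replicate 1. Leaving out a library can only add genes under the rule. On D6 against D2 the 4 higher members became 0 under median-of-ratios scaling and 0 under quantile normalization, and 2 to 4 when 1 library was left out. The 16 lower members became 27 and 28 under these scalings, and 14 to 18 with 1 library left out. On D8 against D2 the 6 higher members became 3 under quantile normalization and 4 to 7 with 1 library left out, and the 18 lower ones 14 to 18. On D8 against D6 the 4 higher members became 1 without the filter on low values and 1 to 4 with 1 library left out, and the 1 lower member 0 to 1. Neurl1a on D6 against D2 turned to -0.0063 under quantile normalization, and the cause was not tested.

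With the replicate number as a block the counts were 4 higher and 17 lower on D6 against D2, 6 and 18 on D8 against D2, and 4 and 1 on D8 against D6, and all 49 calls of members kept their direction and threshold. Deviations of same-numbered libraries correlated at -0.102 to 0.207 over 15358 genes, with 1 of 6 pairs of days above 0.1, so the numbers were not taken to pair the libraries; what else the libraries share was not tested. Depth limits the 8 members whose lowest library held under 100 reads.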
